A study of Mus musculus with 6 samples.

Results

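The DNA replication licensing factors are the proteins that prepare chromosomal origins for a single round of copying. The set described here was fixed by name and holds 10 genes: Mcm2, Mcm3, Mcm4, Mcm5, Mcm6, Mcm7, Cdt1, Cdc6, Gmnn and Pcna. They occupy 18 rows of the authors' sheet of comparisons, of 25697 rows and 18138 gene symbols in all. Each of 7 genes has 1 row, while Mcm4, Mcm6 and Cdc6 have 3 to 4 rows each, all of 1 transcript. Ovaries of Swiss mice aged 3 to 4 days were kept in organ culture for 96 h. The control group (DMSO, n = 3 arrays) received medium with 0.01% dimethyl sulfoxide, and the treated group (3MC, n = 3 arrays) received 5 µM 3-methylcholanthrene, a polycyclic aromatic hydrocarbon that activates the aryl hydrocarbon receptor. Serum, insulin-transferrin-selenium, basic fibroblast growth factor, leukemia inhibitory factor and stem cell factor were in the medium of both groups. The 3MC dose had been chosen in pilot work to be overtly toxic, and whole ovaries were measured, so that oocytes, granulosa cells, stroma and resident leukocytes share each array.

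Licensing takes place in G1 phase. The origin recognition complex, CDC6 and CDT1 load the hexamer of MCM2 to MCM7, the core of the replicative helicase, onto DNA. Geminin, the product of Gmnn, binds CDT1 and blocks further loading once S phase has begun, and PCNA, the sliding clamp of the replication fork, also directs the destruction of CDT1 on DNA. In the ovary soon after birth the oocytes are arrested in meiosis, so that dividing cells are mainly somatic, and E2F transcription factors are known to drive most of these genes in cycling cells.

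Because E2F control is the best-known feature that these genes share, the sites at which their promoters hold the E2F consensus are shown first. RefSeq promoter windows (build GRCm38.p6) run from 250 bases before to 50 bases after each start site and were at hand for 8 of the 10 genes, with Gmnn and Mcm4 unmatched. Each was searched on both strands for the octamers TTTCCCGC, TTTGGCGC, TTTCGCGC and TTTGCCGC, which can overlap one another. A match was found for 6 of the 8 genes (75%), against 2.60% of 27025 genes with a window. The match is shared with other replication genes, at 50% of the E2F, DP and RB family, 40% each of the genes of origin recognition and of clamp loading and the fork, 33.3% of helicase activation, 18.2% of the turnover genes and 0% of nucleotide supply. Each line below holds 30 bases, 5′ to 3′ on the gene's strand, with the letters of the match shown in capitals. The Mcm3 line opens, in lower case, with letters of a further match. That match lies at bases 20 to 27 of the transcript, and its first letter is cut off.
Mcm5: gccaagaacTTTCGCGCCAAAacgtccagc
Mcm6: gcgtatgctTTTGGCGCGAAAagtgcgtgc
Cdt1: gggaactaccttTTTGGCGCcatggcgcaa
Mcm3: cgggaaaacttgggaagtTTTGGCGCcaag
Mcm7: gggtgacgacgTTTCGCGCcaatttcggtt
Cdc6: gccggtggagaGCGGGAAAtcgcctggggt
The Mcm5 stretch lies at chr8:75109347-75109376 (plus strand), the Mcm6 stretch at chr1:128359795-128359824 (minus strand), the Cdt1 stretch at chr8:122568035-122568064 (plus strand) and the Cdc6 stretch at chr11:98908002-98908031 (plus strand). On the minus strand lie the Mcm3 stretch at chr1:20820263-20820292 and the Mcm7 stretch at chr5:138171849-138171878. In Mcm5 and Mcm6 a pair of octamers on opposite strands overlap, and the matches start 153 and 110 bases upstream of the start site. In Cdt1 the match starts at base 33 of the transcript. The matches shown for Mcm3 and Mcm7 also lie inside the transcript, starting at bases 39 and 17. Mcm6 and Mcm7 each hold a further match that is not shown, starting 47 and 165 bases upstream of the start site. Neither Mcm2 nor Pcna held these letters in its window. These matches describe sequence and are not measurements of E2F binding.

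**Figure D1:**
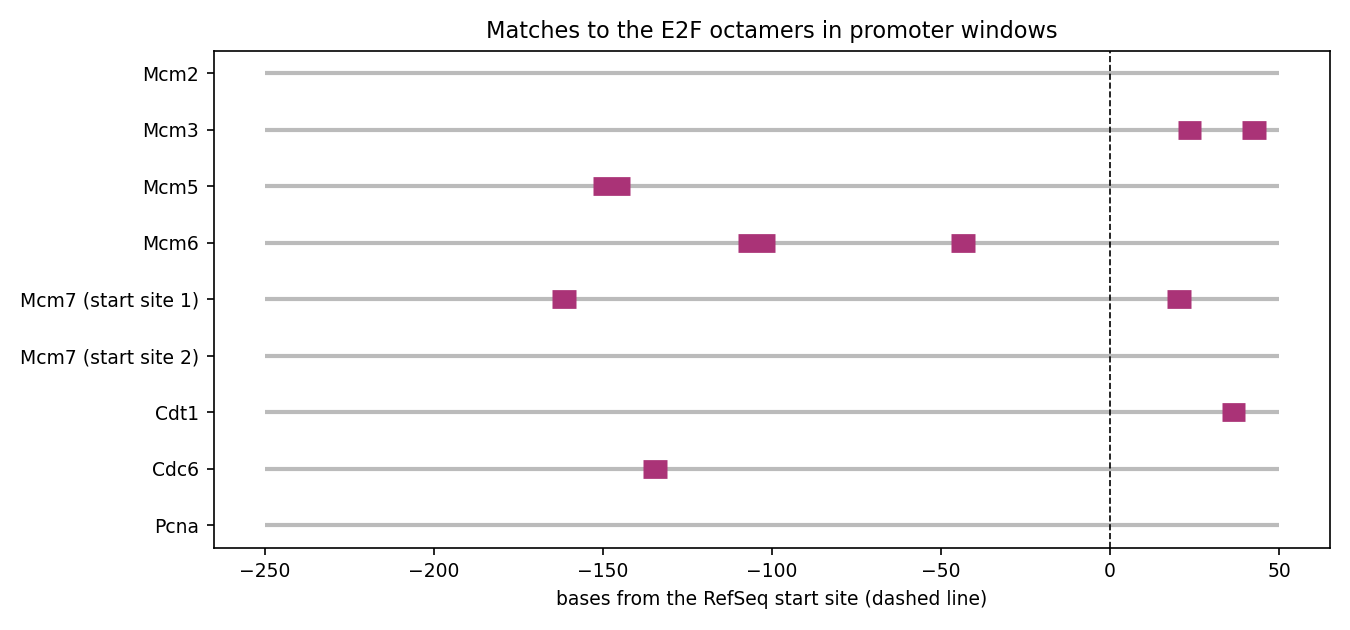
Positions of E2F octamer matches (blocks) in the promoter windows of 8 licensing factor genes, in bases from the RefSeq start site. The horizontal lines span 250 bases before to 50 bases after each start site, and Mcm2, Pcna and 1 of the start sites of Mcm7 show no block.

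Each sample was hybridised to 1 Illumina Mouse Ref-8 v2 BeadChip array with 25697 probes, and the number of arrays limits the precision. Median scanner signals were 107.8 to 109.1 on the DMSO arrays and 98.1 to 124.5 on the 3MC arrays, with 3MC replicate 1 the brightest. The labels do not say if replicates were cultured separately, so the p-values reflect only how far these arrays vary, and that variation may be technical. Of the marker genes of the labelled tissue, 6 of 12 for oocytes and 3 of 11 for granulosa cells were read at an identified probe above the median signal. In these bulk samples, fewer cells of a type and less RNA per cell cannot be told apart.

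In the authors' sheet the rows of the licensing factors did not move as a block: 9 rows had a 3MC to DMSO ratio below 1 and 9 above it. Rows were counted singly, and most of those above 1 belong to Mcm4, Mcm6 and Cdc6, the genes with several rows. Of the genes with 1 row, Mcm2, Mcm3, Mcm5, Cdt1 and Gmnn lay below 1, and Mcm7 and Pcna above it. Most rows have no identified probe, so dim probes, where a change is understated, could not be set apart. The ratios ran from 0.744 for Cdt1 to 1.09 for a Cdc6 row in the authors' deposited table, and no row was 1.5-fold or more away from 1 in either direction, a size reached by 0.981% of all rows downward and 1.12% upward. In the authors' deposited table, 3 of the 18 rows were lower at an unadjusted p under 0.05 (Cdt1, Mcm5 and 1 row of Mcm6) and 1 was higher (Mcm7), against 10.3% and 9.9% of all rows. The median log2 ratio was 0.005 over the 18 rows and 0.00088 over all rows, both from the authors' deposited table. The authors' selection of 537 rows held 0 of the 18. In the authors' deposited table of gene ontology terms, 1.92% of the genes of the term DNA replication were on that selection, and the authors' enrichment p-value was 0.802. A further deposited sheet, named after a p-value of 0.05, lists 7 of the 18 rows and 23.5% of all rows. Its p-values for 3MC against DMSO reach 0.9985, so the sheet was not filtered on the p-value of this contrast.

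**Figure D2:**
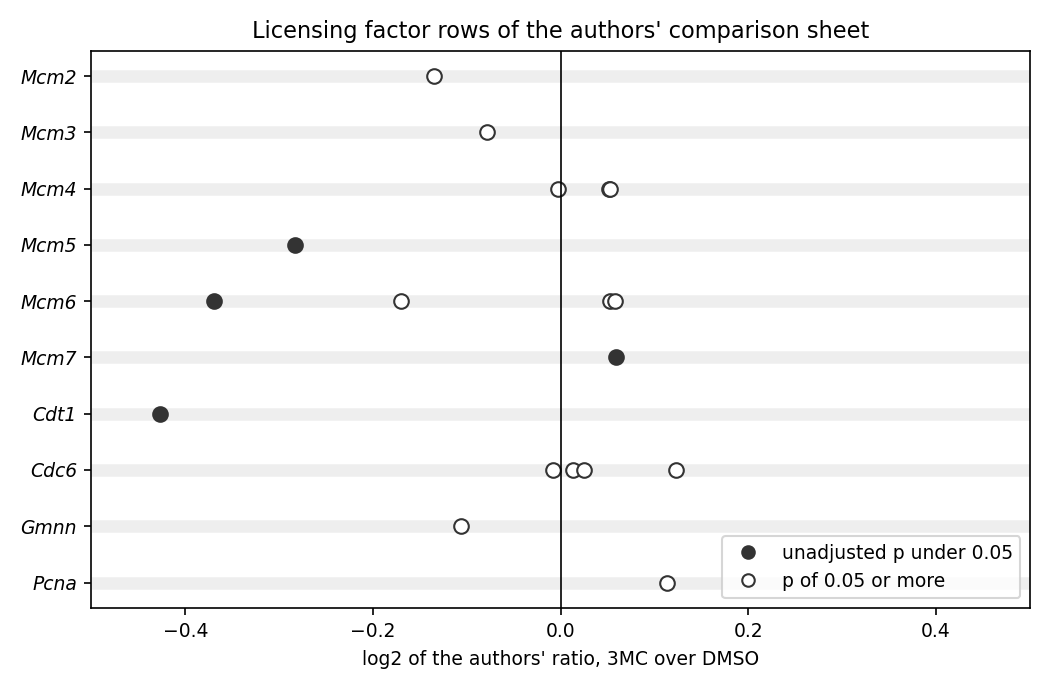
Log2 of the 3MC to DMSO ratio in the authors' deposited table for each of the 18 rows (points), grouped by gene, with filled points where the unadjusted p was under 0.05. Cdt1, Mcm5 and 1 of the 4 rows of Mcm6 lie below 0 as filled points, and Mcm7 lies just above 0.

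The sheet and the per-array tables have no identifier in common. A row was linked to a probe where its ratio equalled the difference of group means of that probe alone within 5e-05 on the log2 scale. By this rule 2 of the 18 rows, those of Cdt1 and Mcm5, have values for each array. The other 16 rows matched 2 to 15 probes each, called candidate probes here, and a statement on such a row is made only where it holds at every candidate. Candidates of a row were picked by the same ratio, so that their agreement in direction and size is not separate support. Sorted ratios of rows and sorted differences of probes lay up to 8.69e-05 apart, so a row's own probe can lie outside this tolerance. At a tolerance of 0.0001 Cdt1 and Mcm5 still matched the same probes. Probes were tested with limma's moderated test on normalised log2 signals, if their mean signal lay above that of the median probe, with Benjamini-Hochberg adjustment over the 12848 probes kept. The moderated spread rests mostly on all probes pooled (30.8 prior degrees of freedom against 4 of the probe's own). Links favour rows far from a ratio of 1: 43% of linked kept probes passed as lower with 3MC, against 16.4% of all kept probes. That both linked licensing factors passed as lower is therefore to be read against 43%. The shares of probes without overlap between the groups, given below, are over all kept probes or all probes. They are not matched for this choice by ratio.

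Cdt1, which brings the MCM hexamer to the origin, had the lowest ratio of the set. Its probe (ILMN_2730463, chromosome 8 in the authors' table) had normalised log2 signals of 9.58, 9.61 and 9.60 in the DMSO replicates and 9.13, 9.15 and 9.18 in the 3MC replicates. The groups did not overlap, and the gap was many times the spread within either group (SD 0.019 and 0.025, n = 3 each). All 3MC arrays lay below all DMSO arrays at 21.5% of kept probes. Cdt1 was 1.36-fold lower with 3MC, a fall by 0.44 ± 0.084 on the log2 scale (SE, n = 3 per group, limma adjusted p = 9.3e-05). The scanner signals before normalisation were 890.7, 831.6 and 816.3 with DMSO and 803.4, 496.2 and 453.5 with 3MC. The brightest of these 3MC values came from replicate 1, the array with the highest median signal.

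Mcm5, a subunit of the helicase hexamer, was the brightest linked member. Its probe (ILMN_2742849, chromosome 8) gave log2 signals of 10.79, 10.80 and 10.67 with DMSO and 10.55, 10.46 and 10.41 with 3MC. Every 3MC array again lay below every DMSO array. Mcm5 was 1.21-fold lower with 3MC, a fall by 0.28 ± 0.086 (SE, n = 3 per group, limma adjusted p = 0.0125). That call was lost without 3MC replicate 3 (log2 fold change -0.24, adjusted p = 0.0567) and when arrays were only centred on their medians (-0.40 ± 0.17, adjusted p = 0.157). Cdt1 kept its call in both settings, with adjusted p = 0.000591 and adjusted p = 0.0273.

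Mcm6, another helicase subunit, was read by 4 rows with the same transcript identifier that did not move together. The row with a ratio of 0.774 (p = 0.0024 in the authors' deposited table) matched 2 probes, and both passed as lower. At the brighter candidate the log2 signals were 9.60, 9.76 and 9.73 with DMSO and 9.41, 9.30 and 9.25 with 3MC, a fall by 0.38 ± 0.087 (SE, n = 3 per group, limma adjusted p = 0.00083). At the dimmer candidate they were 7.50, 7.70 and 7.65 with DMSO and 7.29, 7.22 and 6.99 with 3MC, a fall by 0.45 ± 0.091 (adjusted p = 0.000203). The groups did not overlap at either candidate, as at 21.5% of kept probes where all 3MC arrays lay below all DMSO arrays. With median centring the estimates were larger but less precise, at -0.51 ± 0.17 and -0.51 ± 0.16, and neither candidate passed (adjusted p = 0.0724 and 0.0598). A second Mcm6 row had a ratio of 0.889 (p = 0.18 in the authors' deposited table), and its brighter candidate, at 9.93 to 10.19 with DMSO and 9.77 to 10.06 with 3MC, had overlapping groups (log2 fold change -0.17 ± 0.092, limma adjusted p = 0.157). Without 3MC replicate 1 this candidate passed (-0.25, adjusted p = 0.0438). The dimmer candidate of this row was below the filter, and it passed as lower when no filter was used (-0.26 ± 0.082, adjusted p = 0.0233). The remaining 2 rows of Mcm6 both had a ratio of 1.04 in the authors' deposited table and matched 10 and 13 probes. Over the set, 3 of 18 rows (Cdt1, Mcm5 and 1 of Mcm6) passed as lower at every candidate probe and 0 as higher, against 7.32% and 7.12% of all rows. Among the other rows, no candidate bright enough to be tested passed as reported in either direction, and the row of Gmnn and 1 row of Mcm4 had no such candidate.

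**Figure D3:**
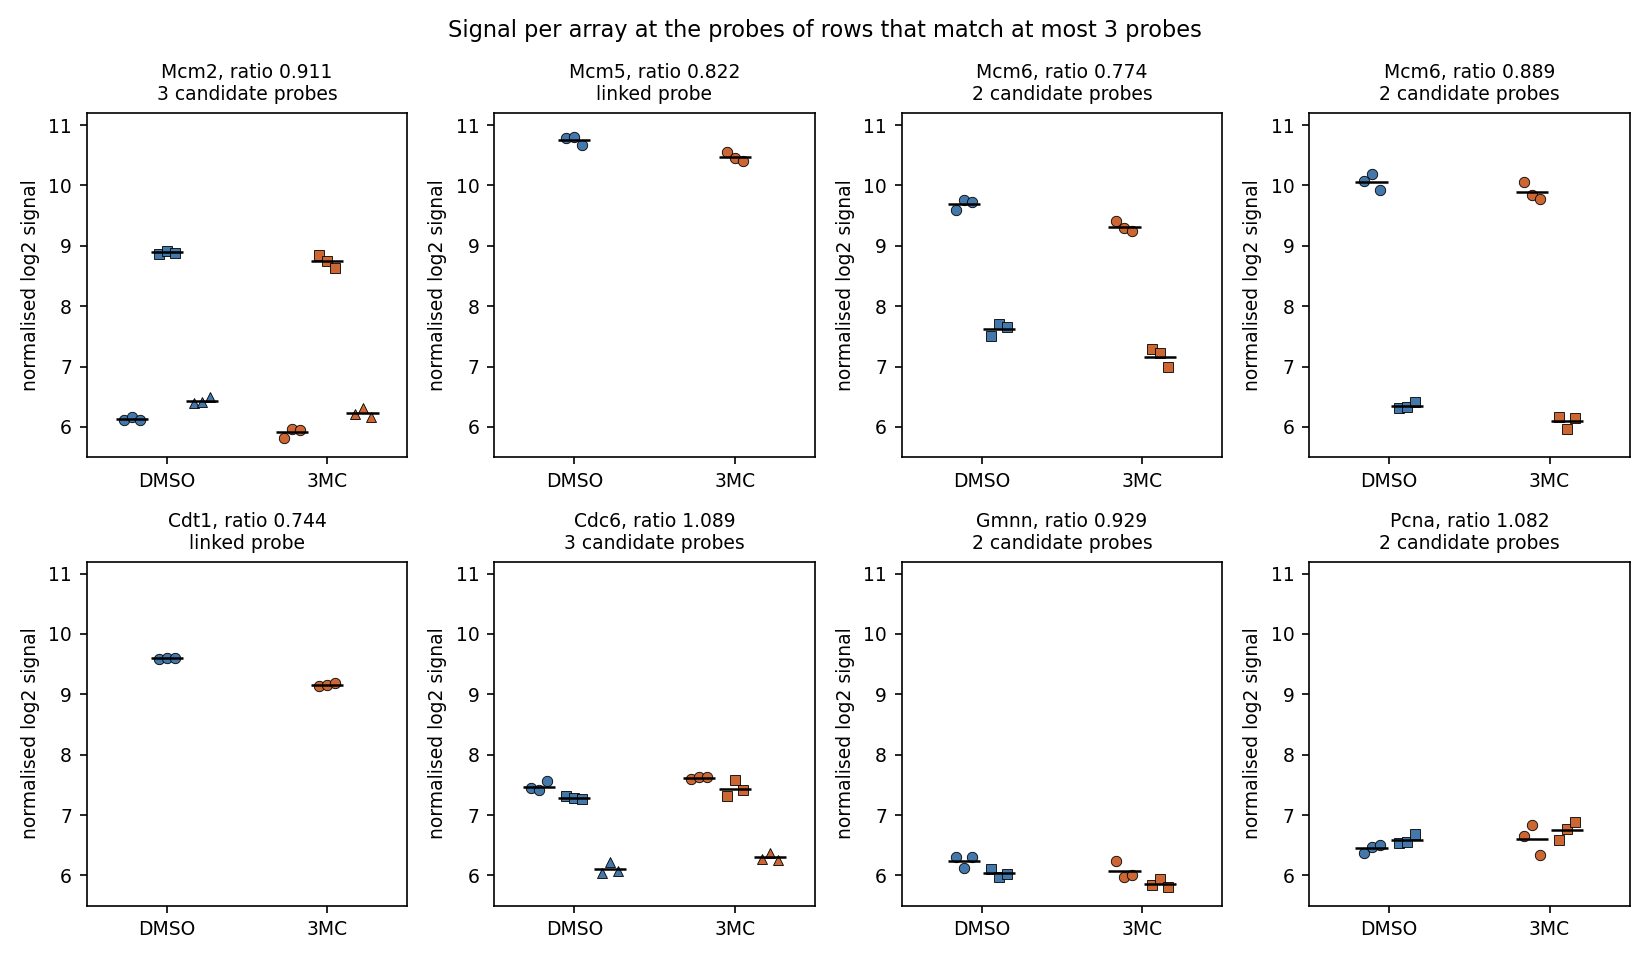
Normalised log2 signal on each of the 6 arrays for the 8 rows that matched at most 3 probes, with 1 marker shape per probe and the group mean as a line. The 3MC points of Cdt1, Mcm5 and both candidates of the Mcm6 row at a ratio of 0.774 lie below all DMSO points, while the candidates of Pcna overlap between groups.

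For the other helicase subunits, the differences were smaller. Mcm2 had a ratio of 0.911 (p = 0.16 in the authors' deposited table) and matched 3 probes, of which 1 was too dim to be tested. The brightest had log2 signals of 8.87, 8.92 and 8.88 with DMSO and 8.84, 8.75 and 8.64 with 3MC, a difference of -0.15 ± 0.086 (SE, n = 3 per group, limma adjusted p = 0.202). The 3MC arrays lay lower at all 3 candidates without overlap, as they did at 13.7% of all probes. These candidates were picked by the same ratio, so they are not separate observations. The difference did not pass at those tested. At the dimmer tested candidate it passed with a smaller background offset of 16 (log2 fold change -0.35, limma adjusted p = 0.0229). It did not pass as reported (-0.20, adjusted p = 0.0717) or in any other setting run, where the adjusted p ran from 0.0508 to 0.419. Mcm3 had a ratio of 0.947 (p = 0.499) in the authors' deposited table. The ratios of the 3 Mcm4 rows in the authors' deposited table were 0.998, 1.04 and 1.04, with p-values of 0.969, 0.534 and 0.228. Mcm7 had a ratio of 1.04 with p = 0.0113 in the authors' deposited table, and of its 6 candidate probes 3 were bright enough to be tested, of which 0 passed in limma's test. The products of the genes Mcm2 to Mcm7 form a complex with 1 copy of each subunit. Ratios of their rows in the authors' deposited table ran from 0.774 to 1.04, and the rows of Mcm6 alone ran over the same range. That range therefore does not show a difference between subunits. Whether Mcm5 fell more than the other subunits was not tested, since their probes were not identified.

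For the remaining loading factors and the clamp, no candidate probe passed as reported. Cdc6, the ATPase that recruits CDT1 and the MCM hexamer, had 4 rows with ratios of 0.995, 1.01, 1.02 and 1.09 in the authors' deposited table, with p-values from 0.191 to 0.89. The row at 1.09 matched 3 probes, and the brightest had log2 signals of 7.45, 7.41 and 7.56 with DMSO and 7.60, 7.63 and 7.63 with 3MC. These groups lay apart by a narrow margin, as at 20.9% of kept probes where all 3MC arrays lay above all DMSO arrays, and the difference of 0.15 ± 0.085 did not pass (SE, n = 3 per group, limma adjusted p = 0.198). Gmnn had a ratio of 0.929 (p = 0.054 in the authors' deposited table). Both of its candidate probes were dimmer than the median probe, at mean log2 signals of 6.24 and 6.04 with DMSO and 6.08 and 5.86 with 3MC, so that they did not enter the test. With no filter on dim probes, the log2 fold change was -0.17 at both (limma adjusted p = 0.229 and 0.165), which did not pass. At a looser tolerance of 0.0001 Gmnn matched 7 probes with mean log2 signals of up to 8.18. Of these, 2 were bright enough to be tested and 0 passed, so that the brightness of Gmnn is not known. Pcna had a ratio of 1.08 (p = 0.157 in the authors' deposited table). Its candidates had log2 signals of 6.38 to 6.50 and 6.53 to 6.68 with DMSO and of 6.34 to 6.83 and 6.59 to 6.89 with 3MC, with overlapping groups at both. The Pcna difference was 0.16 at either probe (SE 0.097 and 0.09, n = 3 per group, limma adjusted p = 0.218 and 0.185). At the dimmer candidate it rested on single arrays, with 0.31 (adjusted p = 0.0186, past the threshold) without 3MC replicate 3 and 0.05 (adjusted p = 0.756) without 3MC replicate 2. At the brighter candidate it was 0.09 (adjusted p = 0.531) without 3MC replicate 3. Both lie close to the median log2 signal of all probes (6.28), where a change in RNA is understated. At the looser tolerance of 0.0001 Pcna matched 4 probes with mean signals of up to 11.47, and 0 of them passed.

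Other genes of replication were read from lists by function. Over these lists, 17 genes had a linked kept probe. At the looser link tolerance of 0.0001 only 9 had one, of which 4 were lower and 5 higher. Array values of linked genes in these lists therefore rest in part on links that are not kept at that tolerance. Which genes lose their link is not given here. Among the genes that recognise origins or help to load the helicase, Mcm10, which links the helicase to DNA polymerase alpha, was the only 1 of 10 linked to a kept probe. It fell by 0.33 ± 0.10 (SE, n = 3 per group, limma adjusted p = 0.011). Its log2 signals were 7.33, 7.33 and 7.45 with DMSO and 7.12, 6.75 and 7.27 with 3MC, so that the 3MC values were widely spread but all lower. Orc1, the largest subunit of the origin recognition complex, had ratios of 0.834 (p = 0.000589) and 1.04 (p = 0.26) at 2 rows of the authors' deposited table, and Orc6 had 1.15 (p = 0.0377). Of 17 rows, 3 were lower and 1 higher at p under 0.05 in the authors' deposited table, against 10.3% and 9.9% of all rows. The median log2 ratio of this list was -0.03.

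Among genes that activate the helicase and fire origins, 2 of 12 were linked to kept probes. Timeless, a fork protection factor, fell by 0.52 ± 0.087 (SE, n = 3 per group, limma adjusted p = 1.11e-05), from 8.0, 7.95 and 7.89 with DMSO to 7.45, 7.32 and 7.51 with 3MC. A further row of Timeless was nearly level, with 0.01 for its log2 ratio in the authors' deposited table. Wdhd1, an adaptor between helicase and polymerase, had a difference of 0.23 ± 0.09 that narrowly missed the threshold (adjusted p = 0.0505). Dbf4, the activating subunit of the CDC7 kinase that phosphorylates MCM proteins, had a ratio of 0.809 (p = 0.00519 in the authors' deposited table), and both of its candidate probes passed as lower. Of 23 rows, 2 were lower and 2 higher at p under 0.05 in the authors' deposited table, against 10.3% and 9.9% of all rows. The median log2 ratio of this list was 0.01.

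Genes of clamp loading and the fork had the lowest median log2 ratio of the 6 lists in the authors' deposited table, -0.07 over 35 rows, with 10 rows lower and 1 higher at p under 0.05, against 10.3% and 9.9% of all rows. Of 8 genes with a linked kept probe, 6 fell, 1 rose and 1 did not pass, to be read against the 43% lower and 43.1% higher among all linked kept probes. These counts hold for the links as reported. How many of these 8 links are kept at the looser tolerance of 0.0001 is not given here. Chaf1b, a subunit of the chromatin assembly factor that PCNA recruits, fell by 0.41 ± 0.084 (SE, n = 3 per group, limma adjusted p = 0.000266), from 8.66, 8.62 and 8.65 with DMSO to 8.21, 8.25 and 8.26 with 3MC. Lig1, the ligase that joins Okazaki fragments, fell by 0.39 ± 0.089 at its linked probe (adjusted p = 0.000691). The 4 rows of Lig1 differed, with log2 ratios of -0.33, -0.28, -0.04 and 0.003 in the authors' deposited table. The others that fell were the polymerase subunit genes Pold1 (0.31 lower), Pold2 and Pole and the clamp loader gene Rfc1, with log2 fold changes of -0.31, -0.28, -0.32 and -0.23. Pole4, an accessory subunit of polymerase epsilon, rose 1.34-fold, and Dnmt1, the maintenance DNA methyltransferase, had a difference of 0.21 ± 0.092 that did not pass (adjusted p = 0.0831). Rpa2, of the single-strand binding protein RPA, had a row at 0.774 (p = 0.000897) and another at 1.09 (p = 0.128) in the authors' deposited table.

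**Figure D4:**
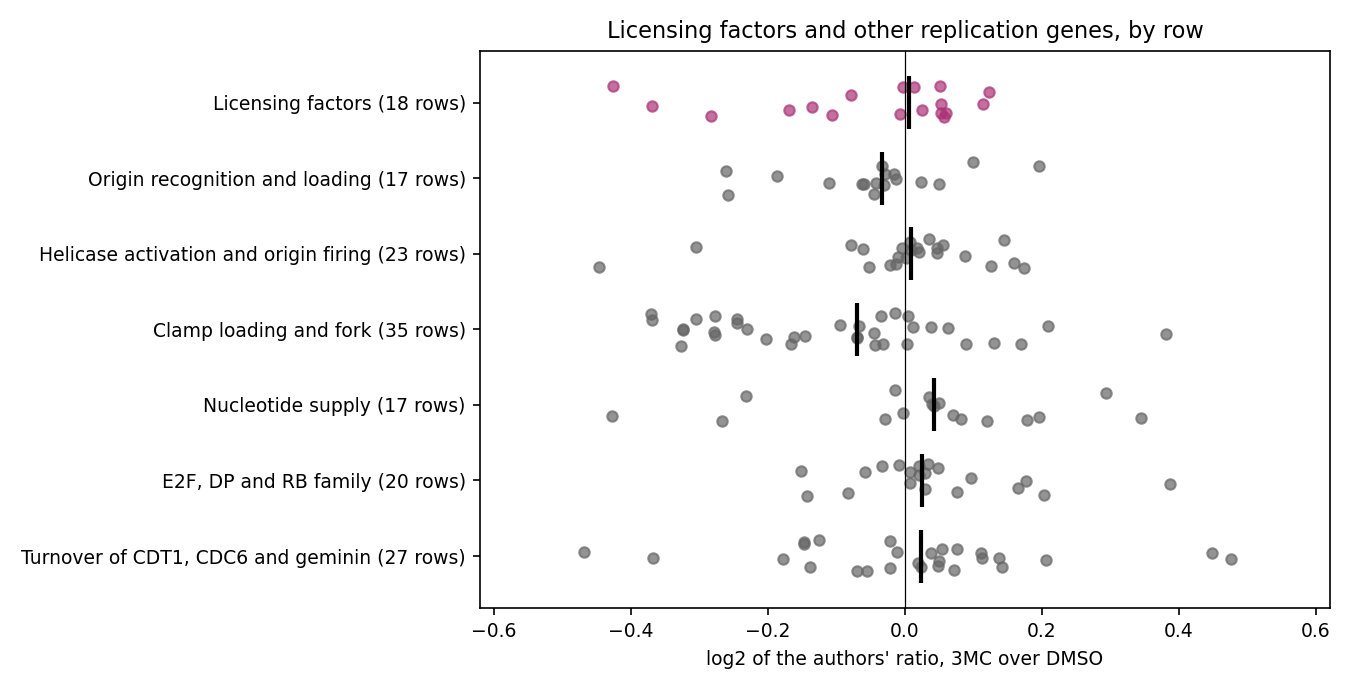
Log2 of the 3MC to DMSO ratio in the authors' deposited table for every row of the licensing factors and of 6 lists of replication genes, with the median of each list as a vertical bar. All medians lie between -0.07 and 0.04, and clamp loading and the fork has 25 of its 35 rows below 0.

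Nucleotide supply genes had 17 rows in the authors' deposited table. Of these, 3 were lower and 4 higher at p under 0.05, against 10.3% and 9.9% of all rows. Rrm1, the large subunit of ribonucleotide reductase, rose 1.28-fold (log2 0.35 ± 0.085, SE, n = 3 per group, limma adjusted p = 0.00152). Tk1, the S phase thymidine kinase, rose by 0.31 ± 0.09 at the brighter of 2 linked probes (adjusted p = 0.00821) and fell by 0.33 ± 0.094 at the dimmer (adjusted p = 0.00694), so that its direction is uncertain. Tyms, thymidylate synthase, had a row at 0.831 (p = 0.00601) in the authors' deposited table, at which every candidate probe passed as lower, and its other rows were closer to 1. Dctpp1 had the lowest ratio of these genes, 0.744 (p = 0.00746 in the authors' deposited table), and every candidate probe passed as lower. Rrm2, the small subunit of the reductase, had a row at 1.13 (p = 0.00483) in the authors' deposited table. In the E2F, DP and RB list, Rb1, whose product restrains E2F, rose 1.34-fold (log2 0.42 ± 0.089, adjusted p = 0.000314), from 8.30, 8.20 and 8.16 with DMSO to 8.79, 8.63 and 8.51 with 3MC. The other row of Rb1 stood at 0.10 on the log2 scale in the authors' deposited table. E2f5 did not pass (-0.15 ± 0.094, adjusted p = 0.222), and E2f1 had a ratio of 1.15 (p = 0.0223) in the authors' deposited table. The E2F, DP and RB list had 20 rows in the authors' deposited table. At p under 0.05, 0 were lower and 3 higher, against 10.3% and 9.9% of all rows.

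Among genes for the turnover of CDT1, CDC6 and geminin, Cdk2, the kinase that limits licensing in S phase, rose at both of its linked probes. The brighter had log2 signals of 10.03, 9.95 and 10.24 with DMSO and 10.36, 10.63 and 10.56 with 3MC, and rose 1.36-fold (log2 0.44 ± 0.093, SE, n = 3 per group, limma adjusted p = 0.000322). Its unlinked rows stood at 0.11 and 0.05 on the log2 scale in the authors' deposited table. Cdc20, an activator of the anaphase-promoting complex that marks geminin for destruction, fell by 0.37 ± 0.087 (adjusted p = 0.00093). This list had 27 rows in the authors' deposited table. At p under 0.05, 2 were lower and 5 higher, against 10.3% and 9.9% of all rows. Skp2 and Cul4a, of ubiquitin ligases that act on CDT1, had rows at 1.10 (p = 0.0355) and 1.15 (p = 0.0196) in the authors' deposited table. Their other rows were closer to level, at -0.02 and 0.02 for Skp2 and 0.04 to 0.08 for Cul4a on the log2 scale. Over all 6 lists, 9 of 17 genes with a linked kept probe fell and 5 rose, against 43% and 43.1% of all linked kept probes. With median centring 3 of the 17 fell and 0 rose. At the looser link tolerance of 0.0001 only 9 genes were linked, of which 4 fell and 5 rose, so the excess of falls was not kept.

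Leukocyte markers were lower with 3MC. All 14 leukocyte genes with a linked kept probe fell, their median log2 fold change was -1.55, and their summed linear signal went from 14329 to 14842 on the DMSO arrays to 4784 to 5152 on the 3MC arrays. Links favour rows far from a ratio of 1, and over all leukocyte rows the median log2 ratio in the authors' deposited table was -0.98. The authors' deposited table holds 29 leukocyte rows, and 21 of them fell to at most 1 over 1.5 of the DMSO level while 0 rose by that factor. The shares over all rows were 0.981% downward and 1.12% upward. The rows of the leukocyte genes Ptprc, Itgam and Fcer1g, which have no linked kept probe, stood between 0.02 and 0.07 on the log2 scale in the authors' deposited table. Calls among markers of any cell type, leukocytes included, are to be read against 43% lower and 43.1% higher of all linked kept probes. For other cell types the median log2 ratio over all rows in the authors' deposited table was 0.05 for oocyte, 0.23 for theca and stroma and 0.07 for granulosa genes. Of markers with a linked kept probe, 4 of 6 oocyte genes were higher and 2 lower, with summed signals of 16456 to 17822 with DMSO and 18899 to 20349 with 3MC. Of 4 theca and stroma genes 3 were higher and 1 lower, with summed signals of 13202 to 13605 and 12320 to 14379, and the collagen gene Col3a1 rose 1.99-fold (limma adjusted p = 1.75e-11). Of 3 granulosa genes 2 were higher and 1 lower, with summed signals of 6266 to 6492 and 5854 to 6173. No marker can be said to be at 0 on these arrays, which give no detection values. The part of these marker differences in the lower signal of Cdt1, Mcm5 and Mcm6 was not tested. Markers of dividing cells had a median log2 ratio of -0.01 over their rows in the authors' deposited table. Most of these rows have no identified probe, so their brightness is not known, and a change at dim probes is understated. Of 14 rows, 3 were lower and 0 higher at p under 0.05 in the authors' deposited table, against 10.3% and 9.9% of all rows. All 3 were rows of Birc5, the mitotic factor survivin. Birc5 was the only 1 of 9 such genes with a linked kept probe and fell by 0.48 ± 0.087 (SE, n = 3 per group, limma adjusted p = 4.24e-05). Top2a, a topoisomerase of dividing cells, was nearly level between the groups, at -0.02 on the log2 scale in the authors' deposited table.

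The 5 linked genes whose profile over the 6 arrays was most like that of Mcm5, by Pearson correlation, were Etfdh (r = 0.9985), a row matched by accession to Mageb4 (0.9981), Arid2 (0.9926), Mtmr14 (0.9923) and Fis1 (0.9917). These were chosen among 2562 linked kept rows, mostly follow the difference between the groups, and are given as a description. Under every setting of processing that was run, the estimates of Cdt1 and Mcm5 were below 0.

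**Figure D5:**
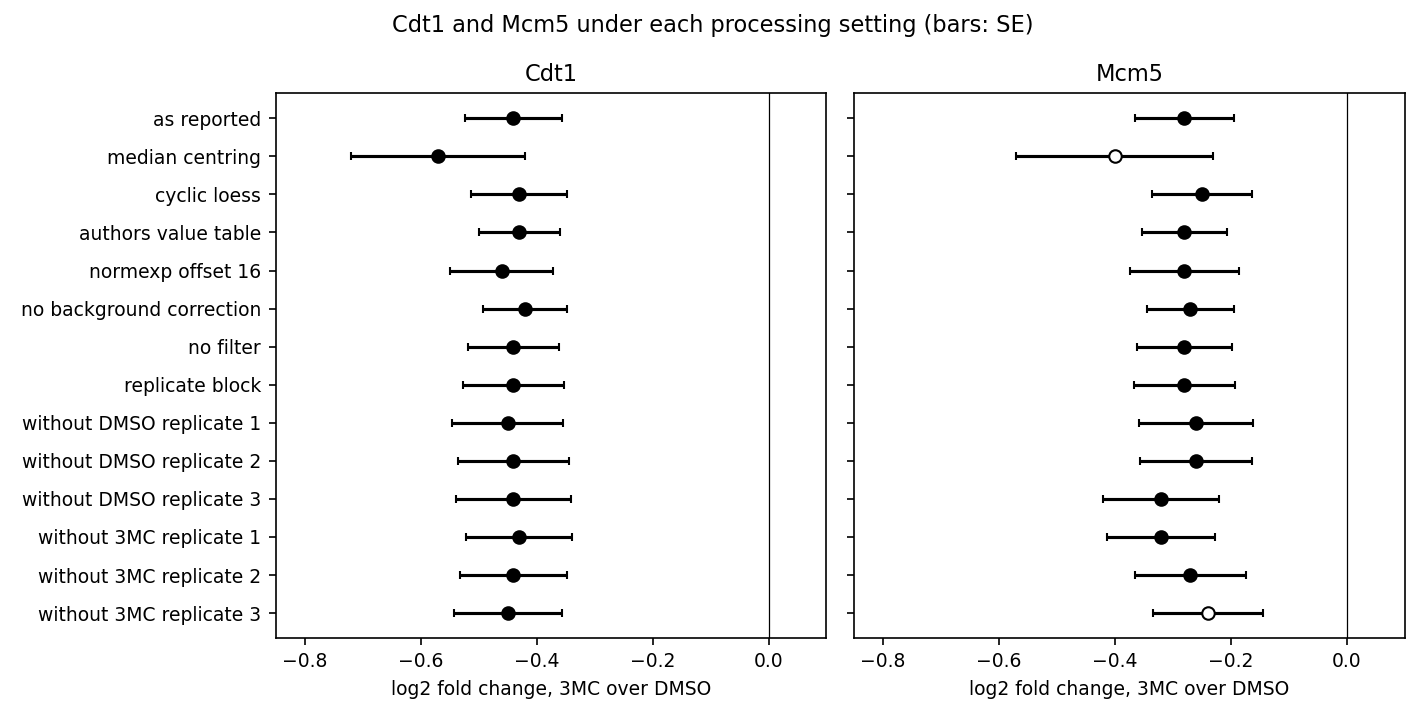
Log2 fold change of Cdt1 and Mcm5 (points, with SE as bars) as reported and under each alternative setting, with open points where the limma adjusted p was 0.05 or more. Cdt1 lies between -0.57 and -0.42 with a filled point throughout, and Mcm5 has open points with median centring and without 3MC replicate 3.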

How the data were processed

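Illumina Mouse Ref-8 v2 BeadChip arrays of 3 DMSO and 3 3MC samples were used. The deposited scanner intensity per probe had no background subtracted and came without detection values or control probes, per the file headers. A table of log2 values normalised by the authors was made with lumi, per the submitters' processing notes, and its log2 scale was read from its correlation with log2 intensity (r at least 0.997). The authors' deposited comparison sheet gives a linear ratio of 3MC to DMSO and an unadjusted p-value for each row, per the file headers, for which no source used here names a model. The deposited gene ontology sheet gives a percent of genes present and an enrichment p-value per term. The chip's probe annotation was not used here.

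Intensities were corrected with normexp (offset 50), taken to log2 and quantile normalised, and tested with limma 3.58.1 in R 4.3.3 (lmFit, eBayes). Kept were 12848 of 25697 probes, whose mean signal exceeded that of the median probe, and an adjusted p under 0.05 passed. The median probe was used since the arrays give no detection call. The script was tested on simulated data. Correlations between arrays were 0.995 to 0.996 within a group and 0.987 between groups, and 0 pairs of arrays were identical. Slide and scan date were not used here. Rows were linked to probes by ratio within 5e-05, and a row with several candidates was counted only if all passed, a rule added after the data were seen. Where 2 linked probes of a gene exist, the brighter is counted. Sequences came from RefSeq tables matched by symbol. The members, the lists of replication genes and the markers were chosen with earlier results of these data known. Named were all members, the 5 genes most like Mcm5 and, chosen after their values were seen, genes with a linked kept probe. In each list up to 4 rows of largest log2 ratio in either direction were set apart for naming. Only part of these are named, so that a gene left out is not thereby level. Alternatives were other normalisations and background settings, no filter, another tolerance, a replicate block and leaving out each array.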

Additional observations from a re-analysis of the deposited data

How the results depend on the processing

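Cdt1 remained lower with 3MC and past the threshold in every setting run, between -0.57 and -0.42 on the log2 scale. With median centring in place of quantile normalisation, which moved the median log2 fold change of kept probes to -0.082, the licensing factor probes called lower went from 2 to 1, the log2 difference of Mcm5 was -0.40 (limma adjusted p = 0.157), the rows lower at every candidate went from 3 to 1, and the replication genes went from 9 to 3 lower and from 5 to 0 higher. Over all kept probes, calls went from 2108 lower and 2028 higher (49.0% higher) to 763 lower and 343 higher (31.0% higher), and the cause was not tested. At a link tolerance of 0.0001 only 9 replication genes were linked, of which 4 were lower and 5 higher. Leaving out each array in turn gave 1 to 2 licensing factor probes lower and 0 higher, 2 to 3 rows lower at every candidate, 6 to 9 replication genes lower and 4 to 7 higher, log2 fold changes of -0.45 to -0.43 for Cdt1 and of -0.32 to -0.24 for Mcm5. The only lost call of a linked licensing factor among these was that of Mcm5 without 3MC replicate 3 (adjusted p = 0.0567).

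With the replicate number as a block, the log2 difference of Cdt1 was -0.44 (limma adjusted p = 0.000239) and that of Mcm5 -0.28 (limma adjusted p = 0.0161), and 2 licensing factor probes and 9 replication genes were lower and 5 higher. Deviations of same-numbered arrays correlated at -0.079, -0.0962 and 0.084, against -0.068 to 0.141 for arrays of different number. Whether same-numbered samples shared a culture or a batch was not tested. Gmnn (0 of 2) and 1 row of Mcm4 (0 of 8) had no candidate bright enough to be tested at the tolerance of 5e-05. At 0.0001, 2 of 7 and 6 of 19 candidates were bright enough, so that the brightness of these rows is not known. The link by ratio leaves 16 of 18 rows with no array values of their own.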
